A study of Mus musculus with 6 samples.

Results

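A group of 7 noncoding RNA genes was followed in rib cage RNA of control embryos and of mutant embryos lacking Foxc1 and Foxc2 in the cartilage lineage. The genes were the 18S ribosomal RNA locus CT010467.1, the rRNA-linked genes Mir6236 and Gm24187, and the structural RNAs Rmrp, Rpph1, Rn7sk and Terc. They were matched by symbol to 8 of the 55487 gene IDs of the count table, since Rmrp has 2 IDs. The genes were chosen from earlier results of these same libraries, so their differences between control and mutant embryos are given as a description, and the calls printed once below are not used as support.

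RNA was isolated from the rib cage at embryonic day 16.5 from 3 controls (embryos E420, E434 and E435), labelled wild type, and from 3 mutants (embryos E423, E433 and E440), labelled Col2-cre;Foxc1-/-;Foxc2-/-. The authors chose this tissue because other tissue could be efficiently removed from its skeletal parts. Col2-cre is driven by regulatory sequence of the type II collagen gene and recombines in cells of the cartilage lineage. Per the study's methods, embryos were compared within litters, and the mice were of a mixed C57B6 and Black Swiss background. Which embryos shared a litter is not given, and p-values measure the spread between these embryos. The deposited values were read counts per gene (featureCounts) and expected fragment counts per gene (RSEM). CPM below is a count divided by its library's size after TMM scaling in edgeR, and TPM is the authors' RSEM value, a share of transcripts that accounts for gene length. Where 3 values are given for a group, they stand in the order E420, E434 and E435 for controls and E423, E433 and E440 for mutants.

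Ribosomal RNA makes up most of the RNA of a cell. The nucleolar RNA polymerase I transcribes a long precursor from which the 18S, 5.8S and 28S rRNAs are cut. Rmrp is the RNA of RNase MRP, an enzyme that cuts this precursor, and its human counterpart is mutated in cartilage-hair hypoplasia, a short-limbed skeletal dysplasia. Rpph1 is the RNA of RNase P, which trims the 5′ ends of transfer RNAs and shares most of its proteins with RNase MRP. Rn7sk is the 7SK RNA, which holds the elongation kinase P-TEFb inactive and so restrains RNA polymerase II, and Terc is the RNA that carries the template of telomerase. Rmrp, Rpph1 and Rn7sk are made by RNA polymerase III and, like the rRNAs, carry no long poly(A) tail. The libraries were prepared with a kit for polyadenylated mRNA from RNA of high integrity, so the levels below are of molecules that passed that selection.

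The sequences show where the RNAs can be told from its neighbours and copies. Coordinates are those of GRCm38, and the sequences are from GENCODE M21 transcripts. CT010467.1 was annotated as an rRNA of 1849 bases on the plus strand, and the first 60 (chr17:39846353-39846412) and last 120 bases (chr17:39848082-39848201) of that strand are shown to identify it. GENCODE M21 places the transcript on the opposite strand, and RefSeq lists Rn18s-rs5, an 18S-related sequence classed as a pseudogene, at this place. Reads from other rRNA repeats with the same sequence cannot be told apart from reads of this locus. Capitals mark the 97 bases that also lie under exons of a second, unnamed gene ID.
CT010467.1 start: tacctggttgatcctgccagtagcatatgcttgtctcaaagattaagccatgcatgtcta
CT010467.1 end: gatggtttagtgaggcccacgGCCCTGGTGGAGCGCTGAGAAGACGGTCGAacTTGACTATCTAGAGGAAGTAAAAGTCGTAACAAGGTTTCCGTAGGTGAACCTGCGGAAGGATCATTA

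Gm24187, listed among the miRNA genes, has 57 bases on the minus strand of chromosome 13 (chr13:9834469-9834525). It is shown with 4 of its 5 copies, whose differing bases are in capitals, because a read inside these genes cannot easily be assigned to 1 of them. Gm23935 (chr16:11144125-11144181), Gm24270 (chr9:56223715-56223771) and Gm24245 (chr4:139338304-139338360) are identical to each other and differ from Gm24187 by A11G, counted from the 5′ end of Gm24187. Gm23388 (chr8:85112012-85112068) differs at 5 positions.
Gm24187: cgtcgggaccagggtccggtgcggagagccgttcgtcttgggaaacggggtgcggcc
Gm23935: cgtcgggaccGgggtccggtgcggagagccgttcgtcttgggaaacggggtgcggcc
Gm24270: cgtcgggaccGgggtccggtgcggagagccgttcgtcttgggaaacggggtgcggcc
Gm24245: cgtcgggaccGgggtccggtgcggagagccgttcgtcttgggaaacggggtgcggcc
Gm23388: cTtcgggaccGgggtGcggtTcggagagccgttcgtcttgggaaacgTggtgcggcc

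The 271-base entry of Rmrp lies on the minus strand of chromosome 4 (chr4:43492788-43493058) and inside a second Rmrp entry of 281 bases. Capitals mark the 124 bases that also lie under an exon of Ccdc107, on the opposite strand. Rpph1 has 319 bases on the minus strand of chromosome 14 (chr14:50807449-50807767), of which 233 lie under an exon of Ccnb1ip1. Its first 60 and last 80 bases are shown, with the 86 bases that belong to Rpph1 alone in capitals.
Rmrp: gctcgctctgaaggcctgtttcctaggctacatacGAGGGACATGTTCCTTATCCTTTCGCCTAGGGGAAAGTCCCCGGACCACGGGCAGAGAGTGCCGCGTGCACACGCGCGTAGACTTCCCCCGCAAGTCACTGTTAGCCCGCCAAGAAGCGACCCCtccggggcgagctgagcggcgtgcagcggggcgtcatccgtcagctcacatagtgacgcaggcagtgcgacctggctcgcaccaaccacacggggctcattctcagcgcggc
Rpph1 start: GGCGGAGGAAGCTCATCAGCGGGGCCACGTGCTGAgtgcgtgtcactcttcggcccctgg
Rpph1 end: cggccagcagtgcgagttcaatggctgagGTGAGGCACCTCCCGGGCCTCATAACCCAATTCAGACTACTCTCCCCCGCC

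Rn7sk has 331 bases on the minus strand of chromosome 9 (chr9:78175303-78175633). Its last 120 bases (chr9:78175303-78175422) are shown, with the 89 bases that have no copy of 99% identity or more in other transcripts in capitals. Terc lies on the minus strand of chromosome 3 (chr3:96414437-96414859), and its first 80 bases (chr3:96414780-96414859) are shown with the telomere template, bases 29 to 36, in capitals. A second gene ID covers all but 26 bases of Terc.
Rn7sk end: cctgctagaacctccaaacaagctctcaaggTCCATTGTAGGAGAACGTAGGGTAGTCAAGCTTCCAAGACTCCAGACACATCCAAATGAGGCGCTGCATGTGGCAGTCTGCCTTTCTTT
Terc start: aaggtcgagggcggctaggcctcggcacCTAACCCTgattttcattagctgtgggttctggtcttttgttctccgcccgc

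In the table of counts each end of a fragment was counted on its own, without regard to strand, and reads that touched several genes were left out. A read with several possible places was counted once, at the place the aligner gave as primary. Of 662 genes with an exact copy of 300 bases or more, 99 had counts, 40 of them at least 100. The identical 7SL genes Rn7s1 and Rn7s2 had 4054 and 4149. These values alone do not tell counting at the primary place from counting at every place. In RSEM fragments with several possible places were shared between genes. A gene had a median of 2.07 read counts per expected fragment over 21544 genes, and departures from this value show where the pipelines read a member differently.

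Library totals ran from 37853988 to 47794799 read counts. Libraries E423 and E440 lay close together, with an SD of the log2 ratio over genes of 0.179, and so did E420 and E435, with an SD of 0.205. The other 13 pairs had SDs between 0.524 and 1.43. Library E434 stood apart by its cartilage markers, whose summed level was 22743 CPM. Mutant E433 came next at 8171 CPM, and the others ranged from 409 to 1328 CPM. Library E433 also held hepatocyte markers at 779 CPM, against 58.5 to 89.2 CPM in the others. The 9 osteoblast markers were each lower in every mutant than in any control (summed level 11503 to 16625 CPM in controls, 7985 to 8378 CPM in mutants) and the 6 adipocyte markers were higher in all mutants (248 to 308 CPM in controls, 369 to 844 CPM in mutants). The 8 keratinocyte markers, at 12.2 to 6148 CPM in controls and 3198 to 28035 CPM in mutants, did not separate the groups. The 7 erythroid markers, at 22584 to 27784 CPM in controls and 9367 to 18211 CPM in mutants, did separate them in summed level, and 5 of these genes were lower in every mutant than in any control. The part of these cell types in the results below was not tested. In bulk RNA, fewer cells of a type and less RNA per cell cannot be told apart.

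The targeted genes checked the labels. Foxc1 had 909, 1674 and 1175 counts in the controls and 148, 414 and 162 counts in the mutants. Foxc2 had 78, 219 and 156 counts in the same controls and 27, 49 and 34 counts in the mutants. Both were lower in every mutant than in every control.

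The 18S rRNA locus CT010467.1 was by far the most abundant member. It had 437053, 451720 and 347391 read counts in the controls, and 848855, 805826 and 954641 read counts in the mutants. These counts were 1.15%, 0.962% and 0.749% of all counts in the controls and 1.95%, 1.93% and 2.0% in the mutants. Each mutant library therefore held more 18S reads than each control library, and the mutants lay closer to each other than the controls did. The mean level was 9415 ± 2037 CPM in controls and 19932 ± 1080 CPM in mutants (SD, n = 3 each), a log2 fold change of 1.08 (SE 0.22). RSEM gave 9588, 8769 and 6093 TPM in the controls and 16470, 17052 and 16642 TPM in the mutants, with a log2 fold change of 1.09 (SE 0.22). The count table held 1.85 to 1.87 read counts per expected fragment for this gene in the 6 libraries, a little below the median over genes.

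Mir6236, annotated as a miRNA gene of 123 bases, was read at a lower level and showed a wider difference. It had 3493, 3297 and 2613 counts in the controls and 10210, 9306 and 13814 counts in the mutants. The 3 mutants were again above all controls, with E440 the highest. The mean level was 71.8 ± 17.5 CPM in controls and 254 ± 42.3 CPM in mutants (SD, n = 3 each), a log2 fold change of 1.82 (SE 0.21). RSEM gave almost no fragments to this gene, 1, 3 and 2 in the controls and 13, 4 and 8 in the mutants. Its effective length, the number of positions at which a whole fragment can start, was between 3.12 and 3.75 bases in RSEM, and the 2 pipelines therefore differ in what they can count here. Counts of a miRNA and of other RNA that crosses its locus cannot be told apart.

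Gm24187 showed the same order of groups as Mir6236. It had 961, 902 and 770 counts in the controls and 2704, 2591 and 3334 counts in the mutants, without overlap of the groups. The mean level was 20.1 ± 4.30 CPM in controls and 65.8 ± 6.10 CPM in mutants (SD, n = 3 each), a log2 fold change of 1.71 (SE 0.17). In RSEM its effective length was 0 and it was listed at 0 in all libraries. The members of its sequence family differed in the same direction. Gm23935, the most abundant copy, had 1639, 2273 and 2159 counts in the controls and 5329, 4052 and 8040 counts in the mutants. Summed over Gm24187 and its 5 copies, the counts were 3129, 3898 and 3744 in the controls and 9765, 7910 and 14116 in the mutants, so that the sum, like Gm24187 alone, separated the groups. Gm24187 took between 20.6% and 32.8% of the counts of the family.

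The 3 rRNA-linked genes kept their proportions to each other in part. The ratio of Mir6236 to Gm24187 counts lay between 3.39 and 4.14 in all 6 libraries. The ratio of CT010467.1 to Mir6236 counts was 125, 137 and 133 in the controls and 83.1, 86.6 and 69.1 in the mutants. The 18S locus was thus higher in mutants by a smaller factor, 2.12 times by mean CPM, than Mir6236, at 3.53 times, and Gm24187, at 3.28 times. The 28S rRNA sequence was not used here, so the relation of Mir6236 and Gm24187 to it was not checked.

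**Figure D1:**
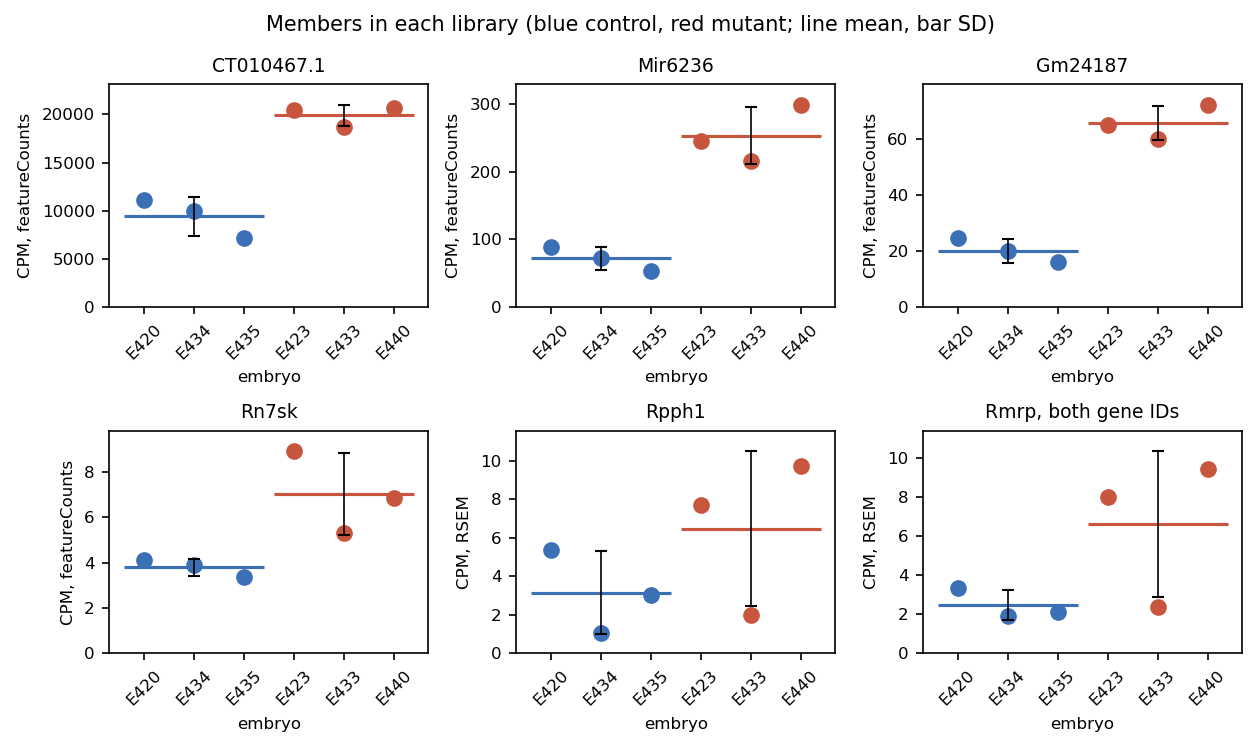
Level of 6 members in CPM (vertical axes, linear, from 0) in each of the 6 embryos (horizontal axes). Blue points are controls and red points mutants, lines are group means and bars the SD of 3 embryos. The upper 3 panels and Rn7sk show every mutant above every control, whereas for Rpph1 and Rmrp mutant E433 lies within the range of the controls.

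Rn7sk, Rpph1 and Rmrp were present at much lower levels than the 18S locus, and Rpph1 and Rmrp were read differently by the pipelines. Rn7sk had 162, 176 and 164 counts in the controls and 370, 229 and 315 counts in the mutants. The groups did not overlap, and E433 lay nearest to the controls. The mean level was 3.79 ± 0.379 CPM in controls and 7.01 ± 1.80 CPM in mutants (SD, n = 3 each), a log2 fold change of 0.89 (SE 0.21). RSEM gave 139, 135 and 125 fragments in the controls and 277, 159 and 239 fragments in the mutants, and a log2 fold change of 0.78 (SE 0.25). The first part of Rn7sk is shared with other genes, as Gm24447 is identical to its bases 1 to 241. Summed over Rn7sk and the 11 other genes of 90% identity or more, there were 283, 271 and 256 counts in the controls. The mutants had 556, 328 and 477. Rn7sk itself took 57.2% to 69.8% of this sum, so its separation of the groups is no further result. Among the copies, Gm24447 had 58, 46 and 35 counts in the controls and 86, 48 and 90 in the mutants. Its groups overlapped, as did those of Gm26315.

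Rpph1 had few reads of its own in the count table, 20, 7 and 15 in the controls and 44, 11 and 48 in the mutants. RSEM, which can place fragments under the Ccnb1ip1 exon, gave 108, 25 and 75.1 fragments in the controls and 164, 44 and 229 in the mutants. In both pipelines mutants E423 and E440 were above all controls, and mutant E433 lay among them. The count table held 0.185 to 0.280 read counts per expected fragment. The log2 fold change was 1.28 (SE 0.64) from read counts and 1.05 (SE 0.73) from RSEM, and the SD of the level in RSEM was 2.15 CPM around 3.15 CPM in controls and 4.02 CPM around 6.49 CPM in mutants (n = 3 each). The related RNase P gene Rprl3 had 21, 6 and 12 counts in the controls and 63, 4 and 66 counts in the mutants, with the same embryos high and E433 the lowest of all. Rprl3 and Rpph1 are 86.0% identical over 257 bases, so their reads are not fully separable. Ccnb1ip1, whose exon covers part of Rpph1 on the same strand, had 2, 5 and 12 counts in the controls. It had 15, 9 and 8 counts in the mutants (log2 fold change 0.81). Fragments under that exon may come from either gene.

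Rmrp had 0 read counts in all libraries under both of its IDs. Every base of the shorter entry lies under the longer one, and a read that touches both was left out of the count table, so this 0 is no measure of its level. RSEM gave, summed over both IDs, 67, 44 and 53 fragments in the controls and 170, 52 and 222 fragments in the mutants. Mutants E423 and E440 were above all controls, and E433 lay between the controls. The summed level was 34.0 ± 9.70 TPM in controls and 86.9 ± 45.5 TPM in mutants (SD, n = 3 each), and the log2 fold change of the summed counts was 1.43 (SE 0.53). Ccdc107, whose exon crosses Rmrp on the other strand, had 696, 759 and 847 counts in the controls and 696, 747 and 853 counts in the mutants (log2 fold change 0.02).

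Terc was at the limit of detection. It had 0 counts in the count table, where all but 26 of its bases lie under the second gene ID, which also had 0 counts. RSEM gave 0 fragments to Terc in all libraries and 1 fragment to the second ID, in control E435. A count of 0 fragments allows up to 3, or 0.123 to 0.155 CPM before TMM scaling depending on the library, for counting error only. No difference in telomerase RNA between control and mutant embryos was detectable at this depth.

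Per length, the order of the members in RSEM was the same in both groups for the more abundant ones. CT010467.1 came first by a wide margin, at 8150 ± 1828 TPM in controls and 16721 ± 299 TPM in mutants. Rn7sk followed in controls, at 53.0 ± 8.48 TPM, above Rmrp at 34.0 ± 9.70 TPM and Rpph1 at 30.2 ± 20.3 TPM, and Rmrp and Rpph1 did not differ beyond their SD. In mutants Rn7sk at 87.6 ± 19.8 TPM and Rmrp at 86.9 ± 45.5 TPM lay within their SDs of each other, as did Rpph1 at 59.3 ± 34.5 TPM (SD, n = 3 each). Mir6236 and Gm24187 are left out of this order because of their effective lengths, and Terc because it was not detected.

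Set against the mean of the controls, the members fell into the patterns that the plot of log2 ratios by embryo shows. CT010467.1, Mir6236 and Gm24187 were above the control mean in every mutant. The RNA polymerase III transcripts Rpph1 and Rmrp were above it in E423 and E440 and not in E433. The 7SL RNA, the scaffold of the signal recognition particle and another RNA polymerase III transcript, had summed counts of 1160, 972 and 929 in the controls and 2983, 644 and 2013 in the mutants, so that E433 was the lowest of the 6 libraries. Rn7sk lay between these patterns. E423 and E440 also had the highest summed levels of keratinocyte markers (27902 and 28035 CPM) and skeletal muscle markers (31497 and 30805 CPM), against 3198 and 17482 CPM in E433. Their part in the levels of Rpph1, Rmrp and 7SL was not tested.

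**Figure D2:**
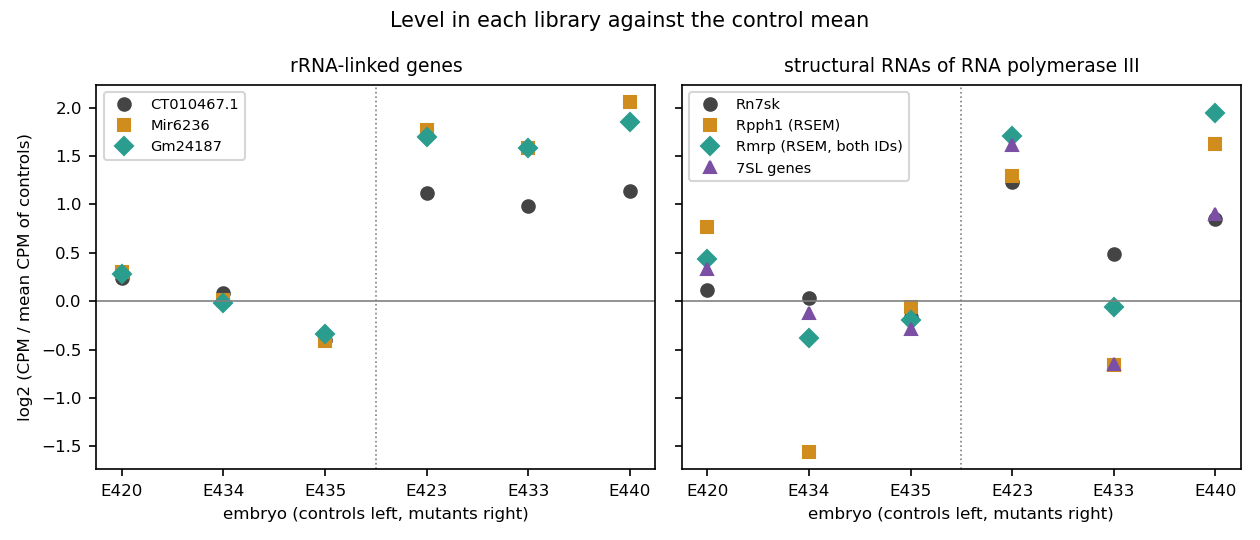
Log2 ratio of the CPM in each embryo to the mean CPM of the 3 controls (vertical axis), for the rRNA-linked genes (left) and for Rn7sk, Rpph1, Rmrp and the summed 7SL genes (right); controls stand left of the dotted line and mutants right of it. All rRNA-linked points of the mutants lie above those of the controls, whereas in E433 the points for Rpph1, Rmrp and 7SL lie below 0.

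Of the 8 gene IDs, 5 passed the filter of at least 10 counts over the 6 libraries, and all 5 had a log2 fold change above 0, from 0.89 to 1.82. The other 3 IDs were those of Rmrp and Terc. Mir6236 and Gm24187 were 2 of the genes past both limits used here (adjusted p below 0.1 and an absolute log2 fold change of 1 or more; edgeR's quasi-likelihood test with Benjamini-Hochberg adjustment), where 0.0338% of the 26596 genes tested were higher in mutants. With DESeq2 there were 3 members past both limits, CT010467.1 being the addition, and 1.62% of genes were called higher. Without mutant E433 all 5 tested members passed, and so did 2.84% of genes in that direction. When any one of the other 5 libraries was left out, 0 members passed. From RSEM, 6 of the 8 IDs were tested and 0 passed, where 0.0228% of genes did. The mutant libraries lay above all controls for 4 of the 5 tested members in read counts, where 6.81% of genes did so. In RSEM this held for 3 of 6 IDs, Rmrp giving 2 of the 6, where 7.24% of genes did so. Mir6236 was among the 3, with 3 fragments in control E434 against 4 in mutant E433. Leaving out E433 gave log2 fold changes of 1.13 for CT010467.1, 1.93 for Mir6236, 1.78 for Gm24187, 1.05 for Rn7sk and 1.71 for Rpph1. Leaving out E434 gave 1.13, 1.83, 1.71, 0.90 and 0.95 for the same genes. As the members were chosen from this contrast, nothing is read from these counts.

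**Figure D3:**
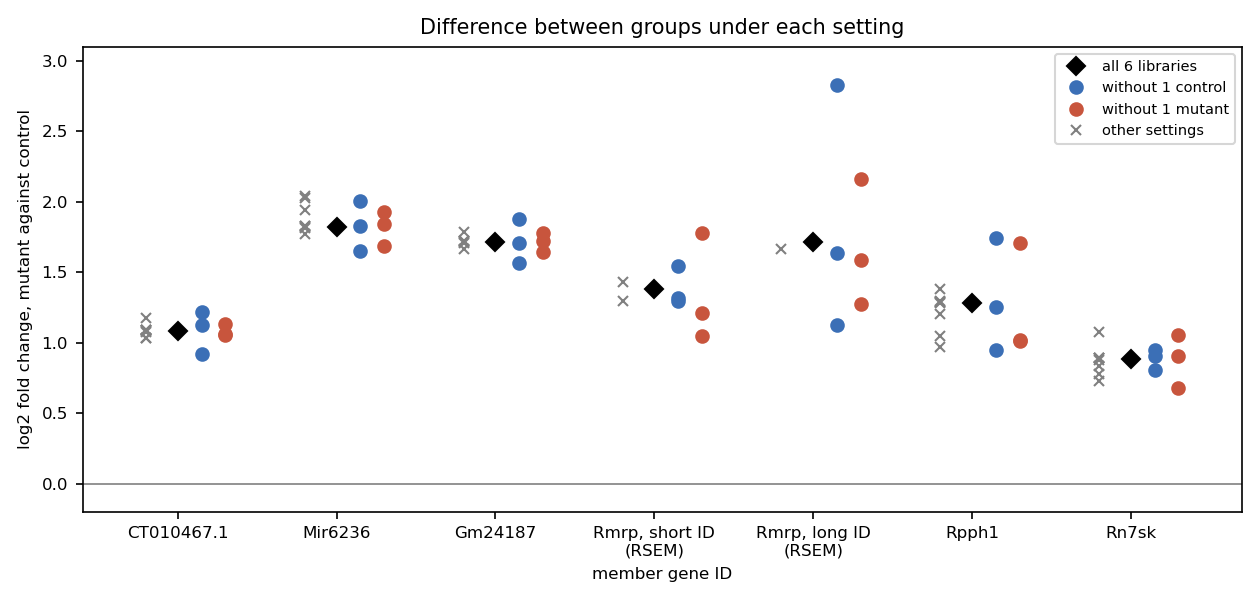
Log2 fold change of mutant against control (vertical axis) for each member ID that could be tested (horizontal axis). Black diamonds are the values from all 6 libraries, blue and red points leave out 1 control or 1 mutant, and grey crosses are other normalizations, filters and pipelines; Rmrp is from RSEM. All values lie above 0, between 0.68 for Rn7sk and 2.83 for the longer Rmrp entry.

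The genes whose levels followed the members most closely were sought among 16567 genes with a mean of at least 1 CPM, by Pearson's r of log2 CPM over the 6 libraries. For CT010467.1 these were Gm15564 (r = 0.999), an antisense RNA, Lars2 (r = 0.997), the mitochondrial leucyl-tRNA synthetase, and Drc3 (r = 0.994). Lars2 also followed Mir6236 (r = 0.996) and Gm24187 (r = 0.996), which were each other's closest genes (r = 0.998). Drc3 was next for Mir6236 (r = 0.995) and Gm15564 for Gm24187 (r = 0.994). Lars2 had 27015, 24486 and 18499 counts in the controls and 72041, 65597 and 84709 counts in the mutants (log2 fold change 1.66, SE 0.23). Whether the reads at Lars2 and Gm15564 came from transcripts of these genes or from rRNA was not tested. Rn7sk was followed most closely by Gfm2 (r = 0.997), a mitochondrial translation factor, Mettl17 (r = 0.993) and Mmd2 (r = 0.987). The points share the libraries and the split into 2 groups, and such values describe 6 points only.

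The question of whether the mRNAs of the protein partners of these RNAs differed was put to gene lists that the choice of members did not use. None of the 87 genes tested on 6 lists of protein partners and machinery passed both limits in edgeR's quasi-likelihood test or in DESeq2, while 2 had an unadjusted p under 0.05. Over all 26596 genes tested, 17 passed in edgeR and 477 in DESeq2, and 2820 had an unadjusted p under 0.05 in edgeR. With so few genes called over the whole table, 0 on a list of this size says little. The median log2 fold change over all genes tested was 0.01.

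The 11 proteins of RNase MRP and RNase P, which bind Rmrp and Rpph1, had a median log2 fold change of 0.03, and 0 of 11 passed the limits. Pop4, a subunit that contacts the RNA, had the largest difference. Controls had 24.9, 10.8 and 25.6 CPM, and mutants had 12.2, 10.2 and 10.8 CPM. The log2 fold change was -0.89 (SE 0.32, edgeR adjusted p = 0.432, DESeq2 adjusted p = 0.09997). Control E434 lay among the mutants. Rpp21, a subunit of RNase P, had a log2 fold change of 0.28 (SE 0.15, adjusted p = 0.544), and Rpp14 and Rpp30 differed least, with 0.02 and 0.03.

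The 7 genes of the 7SK particle and P-TEFb had log2 fold changes between -0.05 and 0.18 with a median of -0.02, and 0 passed. Hexim1, the inhibitor that 7SK brings to the kinase, was at 57.3 ± 3.90 CPM in controls and 64.8 ± 7.0 CPM in mutants (SD, n = 3 each; edgeR adjusted p = 0.580). Hexim2 had a log2 fold change of 0.07 (SE 0.14), and the kinase Cdk9 and the capping enzyme Mepce, which modifies the end of 7SK, differed least, with log2 fold changes of -0.03 and -0.02.

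Of the 10 partners of telomerase RNA 0 passed, with a median of -0.09. Tert, which encodes the catalytic protein, was at 3.37 ± 0.266 CPM in controls and 2.64 ± 1.05 CPM in mutants (SD, n = 3 each; edgeR adjusted p = 0.695). The mRNA of the protein component was thus read in libraries where Terc was not. A kit for polyadenylated mRNA need not capture both alike. Naf1, an assembly factor of H/ACA particles, had a log2 fold change of -0.29 (SE 0.11, adjusted p = 0.443) with all mutants below all controls. Dkc1, which binds the H/ACA part of Terc, and Wrap53 differed least, with 0.00 and -0.06.

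The 16 genes of the RNA polymerase I machinery, which transcribes the 18S precursor, had log2 fold changes between -0.13 and 0.13 with a median of 0.03, and 0 passed. Polr1c and Polr1e, subunits of the enzyme, were at the ends of this range. Taf1d and Taf1c, parts of its promoter factor SL1, differed least, with 0.00 and 0.01. Of the 20 rRNA processing factors 0 passed, with a median of 0.01. Npm1, a nucleolar chaperone, had a log2 fold change of -0.20 (SE 0.09, adjusted p = 0.510) and Nip7, a factor of 60S assembly, one of -0.12, whereas Ncl, the nucleolar protein nucleolin, and Nop58, a protein of box C/D particles, had 0.00 and -0.01.

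The 23 genes of the RNA polymerase III machinery, which makes Rmrp, Rpph1 and Rn7sk, had a median log2 fold change of -0.04, and 0 passed. Polr3g, an alternative subunit abundant in stem cells, had the largest difference but varied widely within groups. Controls had 47.4, 7.26 and 45.5 CPM, and mutants had 66.8, 25 and 67.1 CPM (log2 fold change 0.67, SE 0.70, adjusted p = 0.766). The libraries E434 and E433 were the lowest of their groups, as they were for Rmrp and for Rpph1 in both pipelines. Polr3d, a subunit of the core enzyme, had a log2 fold change of -0.21 (SE 0.09, adjusted p = 0.475), and Polr3a and Polr3b, the largest subunits, had 0.00 and -0.01.

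**Figure D4:**
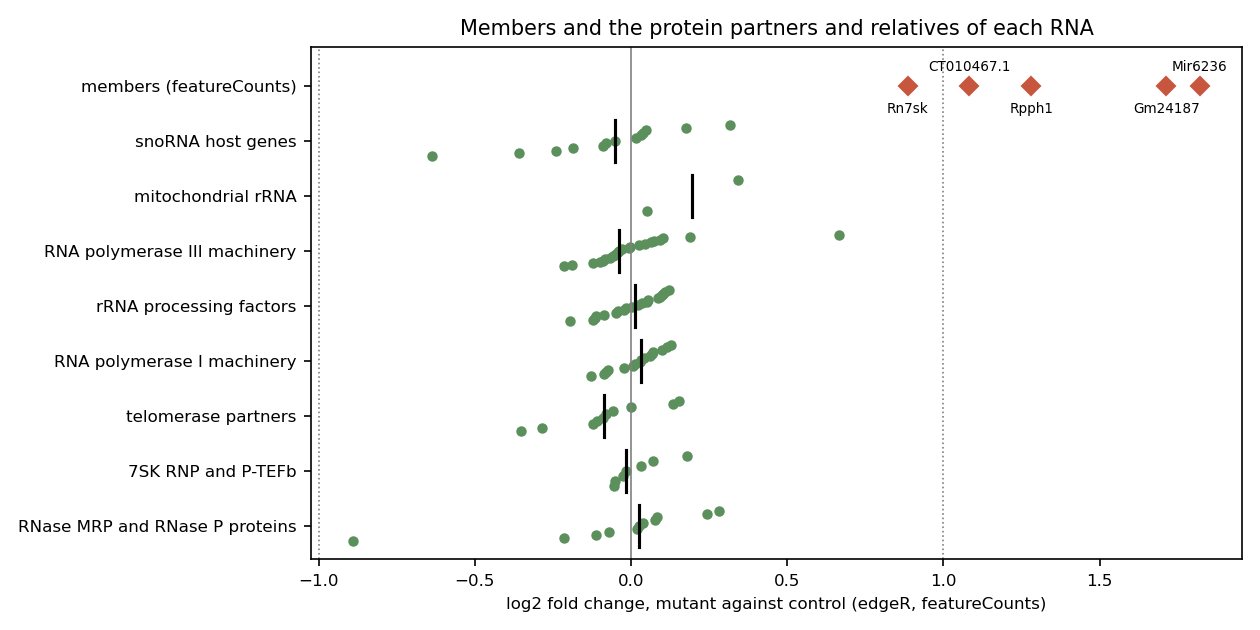
Log2 fold change of mutant against control (horizontal axis) for each tested gene of 8 lists (rows, green points, black bars are list medians) and for the 5 members tested from read counts (red diamonds). Dotted lines mark the limit of 1 either way; the list genes lie between -0.89 and 0.67, and the members between 0.89 and 1.82.

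Other structural RNAs were examined as relatives of the members. The mitochondrial rRNAs, made in another compartment by another polymerase, did not separate the groups. The small mitochondrial rRNA mt-Rnr1 had 16136, 13467 and 17056 counts in the controls and 22726, 16207 and 19396 counts in the mutants (log2 fold change 0.34, SE 0.18, edgeR adjusted p = 0.544). The large one, mt-Rnr2, had a log2 fold change of 0.05 (SE 0.24, edgeR adjusted p = 0.958).

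Of the 13 snoRNA host genes tested, whose introns hold the guides of rRNA modification, 0 passed the limits, and the median log2 fold change was -0.05. Snhg6 had a log2 fold change of -0.36 (SE 0.09, edgeR adjusted p = 0.349, DESeq2 adjusted p = 0.0497), with all mutants below all controls. Snhg20 had one of 0.32 (SE 0.14, edgeR adjusted p = 0.481). Snhg15 and Snhg1 differed least, with 0.02 and 0.03. Among small RNA classes of the annotation, 0 of 56 snRNA, 0 of 103 snoRNA and scaRNA and 0 of 94 miRNA genes tested passed the limits in edgeR, members left out. At an unadjusted p under 0.05 there were 3, 2 and 5 genes, and DESeq2 called 0, 0 and 4. The 4 miRNA genes DESeq2 called higher are copies of Gm24187 with adjusted p below 0.1, and they share reads with it. The median log2 fold changes of these classes were 0.77, 0.27 and 0.24, on few counts per gene. Summed snRNA levels were higher in every mutant (8.004 to 12.48 CPM) than in any control (5.934 to 6.209 CPM). So were those of snoRNA and scaRNA, at 29.7 to 37.44 CPM against 26.07 to 28.65 CPM. Summed miRNA levels, which include the copies of Gm24187, were 110 to 118 CPM in controls and 180 to 286 CPM in mutants. Among rRNA, miscellaneous RNA and ribozyme genes, members left out, 0 of 7, 0 of 27 and 0 of 2 passed in edgeR. Their medians were 0.72, 0.62 and 2.26, and the summed miscellaneous RNA and ribozyme levels overlapped between groups. Higher medians were not confined to the members.

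The proteins that share the ribosome with the 18S rRNA were measured from their polyadenylated mRNAs. Of 82 cytosolic ribosomal protein genes tested, 0 passed in edgeR and 2 were called higher by DESeq2, and the median log2 fold change was -0.04. Rpl3l, a form found in muscle, was at 1.58, 2.43 and 1.46 CPM in controls and at 12.1, 2.60 and 10.4 CPM in mutants (log2 fold change 2.20, SE 0.57, edgeR adjusted p = 0.361). Rpl39l, a testis form, was at 1.09 ± 0.0648 CPM in controls and 2.61 ± 1.05 CPM in mutants (SD, n = 3 each; edgeR adjusted p = 0.366). Rps26 and Rps23, components of the small subunit that holds 18S rRNA, differed least, both by 0.00. Replication-dependent histone mRNAs, which end in a stem-loop and lack a poly(A) tail, were 61 genes tested with a median log2 fold change of 0.17 and 0 past the limits. Hist1h4h, at 0.90 ± 0.061 CPM in controls and 1.51 ± 0.262 CPM in mutants (SD, n = 3 each), had the largest difference among those of at least 1 CPM (log2 fold change 0.74, SE 0.21, edgeR adjusted p = 0.381).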

How the data were processed

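Samples were grouped by the genotype in the labels. The authors aligned reads to GRCm38 with HISAT2 2.1.0 and deposited raw read counts per gene from featureCounts 1.6.0 on GENCODE exons, without normalization. The authors also deposited expected counts and TPM per gene from STAR 2.7.6 and RSEM 1.2.31. Tables of the authors' own DESeq2 1.26.0 comparison (fold changes and p-values, with 12 columns of per-sample values) were not used. Symbols and sequences came from GENCODE M21, an older release on the same build.

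After TMM scaling, genes with 10 or more counts over 6 libraries were compared by the quasi-likelihood test of edgeR 4.0.16 (glmQLFit, glmQLFTest; R 4.3.3), with limits of 0.1 on the adjusted p and 1 on the absolute log2 fold change. DESeq2 1.42.0, other scalings and filters, rounded RSEM expected counts and leaving out libraries were alternatives. Log2 CPM used a prior count of 2. The tests were checked on counts simulated with a common dispersion for all genes. That setting lacked the differences in make-up between the real libraries. Copies were found with blastn (alignments of 50 bases or more). Members and lists were chosen with earlier results of these data known. Named list genes were those past both limits, otherwise the 2 largest and 2 smallest absolute changes at 1 CPM or more, and the 3 genes of highest r per member. Gm15564, Ccdc107, Rprl3, Gm23935 and the 7SL genes follow from that rule or from sequence. Intervals and limits cover counting error only. The sequence of Mir6236 is not reported here.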

Additional observations from a re-analysis of the deposited data

How the results depend on the processing

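The log2 fold changes of the 7 gene IDs that could be tested kept their sign under each alternative in which they could be tested. They moved by less than the SD within groups in 83 of 83 cases. Leaving out 1 of 3 embryos can hardly move a group mean by more than that, so this count says little and the ranges are given. Terc was tested in none, Rmrp in RSEM alone, and Gm24187 in read counts alone. The log2 fold change ranged from 0.92 to 1.22 for CT010467.1, 1.65 to 2.04 for Mir6236, 1.57 to 1.88 for Gm24187, 0.68 to 1.07 for Rn7sk, 0.95 to 1.74 for Rpph1, 1.05 to 1.78 for the shorter and 1.13 to 2.83 for the longer Rmrp entry. The upper end for Mir6236 came from RSEM, which gave it 1 to 13 fragments per library. The summing of the Rmrp IDs was chosen after seeing the data.

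The counts of genes past both limits moved more. With all 6 libraries 17 genes passed, against 477 with DESeq2, 37 without a low-count filter, 10 from RSEM, 2066 without E434 and E433, and 0 to 1087 leaving out 1 library. Without mutant E433 it was 1087, without control E434 17, and without any other library 0. Of the members 2 passed, 0 from RSEM, 5 without E434 and E433, and 0 to 5 leaving out 1 library (5 without E433, 0 otherwise). Of the list genes other than cell type markers 0 passed, 6 with DESeq2 and 1 without a low-count filter. Without E434 and E433 it was 27, and leaving out 1 library 0 to 13. Among the markers, the osteoblast gene Phex alone passed with all 6 libraries (log2 fold change -1.68, edgeR adjusted p = 0.0775). The RSEM count of 10 became 0 to 1016. The cause was not tested. No paired analysis was possible because the embryo numbers do not pair controls with mutants.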
